A study of Mus musculus with 8 samples.

Results

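Eosinophil granule proteins are the cytotoxic and cationic proteins that eosinophils store in their secondary granules, and Il5ra encodes the receptor chain through which eosinophils bind interleukin 5. The set held 9 mouse genes taken by name, namely Prg2, Prg3, Epx, Ear1, Ear2, Ear6, Ear10, Rnase2a and Il5ra, and their probes were found by matching the accession of every non-control spot to the gene symbol. Of the 9 genes, 8 had a probe (9 probes in all) and 6 passed the filter on dim probes, out of 17302 genes that passed it. Ear2 is named only, because no spot carried an accession of it.

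The cells were haematopoietic stem and progenitor cells (HSPCs) from the bone marrow of 4 Runx1 Δ/Δ mice of mixed C57Bl/6 and 129SvJ background. The marrow was depleted of lineage-positive cells and kept 2 days in serum-free medium that held mouse IL-3 at 10 ng/ml, mouse SCF at 50 ng/ml, and human IL-11 and human Flt3 ligand, each at 100 ng/ml; the labels name no IL-5 among the additions. Cells of each mouse were transduced with a retrovirus carrying an shRNA against Pcgf1, a Polycomb subunit, or a control shRNA, and were selected with puromycin (5 µg/ml) for 36 h, which gave 4 Pcgf1 shRNA and 4 Control shRNA cultures. Both groups carried the Runx1 deletion, so no culture with intact Runx1 stood beside them, and the ages of the mice and the driver of the deletion are not given in the sources used here. RNA of each culture was hybridised to a one-colour Agilent array, and signals are given as log2 values with the 75th percentile of each array set to 0.

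On the 8 arrays, the share of non-control spots called well above background was 54.8% to 62.0%, and none was saturated. The arrays lay on 2 slides, with mice 1 and 2 on one and mice 3 and 4 on the other, each slide holding both groups. Pcgf1 itself, the target of the shRNA, was at 39.0% of its Control shRNA signal, with log2 changes of -1.39, -1.40, -1.29 and -1.34 in mice 1 to 4. The cultures were bulk samples, so fewer cells of a type and less RNA per cell cannot be told apart for any gene below.

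Eosinophils arise in the bone marrow from granulocyte progenitors under GATA and C/EBP transcription factors, and interleukin 5 drives their expansion and survival. Their granules hold a core of major basic protein (Prg2) with its homologue Prg3, surrounded by eosinophil peroxidase (Epx) and by ribonucleases of the RNase A superfamily, which in mice have multiplied into the Ear family related to the human genes RNASE2 and RNASE3. Il5ra binds interleukin 5 and signals with the common beta chain, encoded by Csf2rb, that is shared with the receptors for interleukin 3 and GM-CSF.

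The promoter windows of the members are shown because the granule genes were lower together and because the windows of the ribonuclease genes are near copies of each other. RefSeq gives a window of 300 bases, from 250 before to 50 after the gene's start, for 8 of the 9 genes (GRCm38.p6), and Prg2 had no entry in that table. Capitals mark GATAA or its reverse complement TTATC, the core letters of the GATA motif. The windows of ribonuclease genes on chromosome 14 printed here are those of Ear1 (chr14:43819590-43819889, minus strand), Ear2 (chr14:44102404-44102703, plus strand), Ear6 (chr14:51853518-51853817, plus strand) and Rnase2a (chr14:51256063-51256362, minus strand).
Ear1: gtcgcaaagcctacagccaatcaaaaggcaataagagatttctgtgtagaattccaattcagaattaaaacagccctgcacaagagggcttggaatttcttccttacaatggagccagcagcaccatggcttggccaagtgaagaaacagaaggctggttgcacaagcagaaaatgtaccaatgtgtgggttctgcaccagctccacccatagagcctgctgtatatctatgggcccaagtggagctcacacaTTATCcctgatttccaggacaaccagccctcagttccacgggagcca
Ear2: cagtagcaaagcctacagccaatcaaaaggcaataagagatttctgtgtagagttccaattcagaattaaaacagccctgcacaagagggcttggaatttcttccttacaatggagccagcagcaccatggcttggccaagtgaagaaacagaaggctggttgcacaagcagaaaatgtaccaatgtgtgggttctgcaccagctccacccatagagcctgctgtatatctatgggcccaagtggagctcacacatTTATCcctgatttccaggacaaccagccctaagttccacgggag
Ear6: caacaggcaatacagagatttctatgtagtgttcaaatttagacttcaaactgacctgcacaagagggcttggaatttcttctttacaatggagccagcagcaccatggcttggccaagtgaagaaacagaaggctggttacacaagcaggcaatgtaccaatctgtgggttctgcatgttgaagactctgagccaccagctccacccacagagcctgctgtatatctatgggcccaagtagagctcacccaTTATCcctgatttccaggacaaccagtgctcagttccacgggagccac
Rnase2a: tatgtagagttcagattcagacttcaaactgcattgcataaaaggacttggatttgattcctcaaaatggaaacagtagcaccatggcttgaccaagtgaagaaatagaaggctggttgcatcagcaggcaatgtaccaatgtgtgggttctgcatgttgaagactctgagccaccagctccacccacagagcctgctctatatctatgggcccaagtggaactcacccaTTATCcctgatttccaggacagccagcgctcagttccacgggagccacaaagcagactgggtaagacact
Among the windows of Ear1, Ear2, Ear6, Ear10 and Rnase2a, the 10 pairs were 87.3% to 99.0% identical, and Ear1 and Ear2 shared 294 of 297 aligned bases. The letters GATAA, read on either strand, stood in all 5 of them.

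Outside the ribonucleases, the windows of Prg3 (chr2:84987965-84988264, plus strand), Epx (chr11:87875487-87875786, minus strand) and Il5ra (chr6:106748988-106749287, minus strand) are shown for comparison, since these genes lie on other chromosomes. Prg3 and Epx were lower in Pcgf1 shRNA cultures and Il5ra was higher.
Prg3: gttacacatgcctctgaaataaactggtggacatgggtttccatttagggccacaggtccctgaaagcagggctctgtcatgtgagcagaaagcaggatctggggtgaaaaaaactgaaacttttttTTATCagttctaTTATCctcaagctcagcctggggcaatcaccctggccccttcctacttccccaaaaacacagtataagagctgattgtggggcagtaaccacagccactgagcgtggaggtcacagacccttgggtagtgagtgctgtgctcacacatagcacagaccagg
Epx: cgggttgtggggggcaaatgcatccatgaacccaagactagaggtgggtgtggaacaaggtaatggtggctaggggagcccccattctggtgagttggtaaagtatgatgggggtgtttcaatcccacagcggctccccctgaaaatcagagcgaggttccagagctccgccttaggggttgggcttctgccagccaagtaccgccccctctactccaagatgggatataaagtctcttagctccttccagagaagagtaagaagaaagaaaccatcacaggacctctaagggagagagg
Il5ra: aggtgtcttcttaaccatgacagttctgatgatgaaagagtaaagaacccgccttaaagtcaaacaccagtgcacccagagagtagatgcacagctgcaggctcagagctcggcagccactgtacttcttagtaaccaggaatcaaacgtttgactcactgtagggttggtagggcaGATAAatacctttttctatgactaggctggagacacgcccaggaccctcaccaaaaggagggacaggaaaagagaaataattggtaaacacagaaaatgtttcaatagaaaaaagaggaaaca
GATAA occurred in 7 of the 8 windows, Epx being the one without it, and in 25.4% of the 32851 windows of the whole table. The C/EBP half-site pair TTGCNNAA occurred in 4 of 8 (Ear1, Ear2, Ear10 and Rnase2a), against 10.8% of all windows, and the RUNX core TGTGGT in 1 of 8 (Prg3), against 16.8% of all windows, both strands being read for each. The ribonuclease windows are near copies, so matches in them are not separate instances and these counts cannot be set against the share of all windows. Outside that family, GATAA stood in the windows of Prg3 and Il5ra, and TTGCNNAA in no window. GATAA stood in the window of Il5ra, which was higher in Pcgf1 shRNA cultures, as well as in those of granule genes that were lower. These matches describe the letters of the windows only. In the RefSeq gene order, Prg2 and Prg3 were adjacent protein-coding genes on chromosome 2, as were Ear1 and Ear10 on chromosome 14.

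The comparison of the shRNAs asks which genes differ under the Pcgf1 shRNA in progenitors with the Runx1 deletion. Effects of the shRNA other than through Pcgf1 were not tested. All 5 granule protein genes that passed the filter had a lower mean in Pcgf1 shRNA cultures, at 27.3% to 41.7% of the Control shRNA signal, and Il5ra had a higher one. In the fit that treats the cultures as unpaired, 0 of the 6 members rose and 0 fell at an adjusted p of 0.05, against 0.595% of 17301 genes that rose and 0.168% that fell, while 6 of 6 had an unadjusted p under 0.05, against 12.2% of all genes. With the mouse as a block, which uses the pairing of both cultures of a mouse, 4 members fell (Prg2, Prg3, Ear6 and Rnase2a) and 1 rose (Il5ra), against 2.42% of 17300 genes that fell and 2.91% that rose. The blocked calls were lost in some fits that left out a mouse: without mouse 2, or without mouse 4, no member passed in the blocked fit. Calls over all genes also dropped in those fits, to 0 without mouse 2 and 145 without mouse 4, from 921 with all mice. Without mouse 1, Ear6 and Rnase2a did not pass (adjusted p 0.0629 and 0.0582), and Il5ra passed in none of the 4 blocked fits that left out a mouse (adjusted p 0.0629 to 0.178). Of the 6 members, 5 were at least 2-fold lower on average, against 1.42% of all genes. Since the members were chosen with earlier results of these data known, their counts beside those shares are a description only. The median change of the 6 members was -1.76 on the log2 scale, and that of all genes was 0.00.

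Prg2 encodes major basic protein, the cationic protein of the granule core. Its log2 signal was 1.70, 0.77, 0.78 and 2.07 in the Pcgf1 shRNA cultures of mice 1 to 4, against 2.53, 2.64, 3.76 and 3.88 in the Control shRNA cultures. The groups did not overlap, as was so, with the Pcgf1 shRNA group lower, for 2.91% of all genes, and mouse 1 showed the smallest difference. Mean signals were 1.33 ± 0.66 in Pcgf1 shRNA cultures and 3.20 ± 0.72 in Control shRNA cultures (SD, n = 4 each). The log2 change was -1.87, or 3.67-fold lower in Pcgf1 shRNA cultures, and the adjusted p was 0.101 in the unblocked fit (SE 0.42) and 0.0350 with the mouse as a block (SE 0.32). Within the mice, the Pcgf1 shRNA culture held 56.2%, 27.4%, 12.6% and 28.5% of the signal of its control.

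Prg3, the homologue of major basic protein next to Prg2, followed the same order of cultures. Its log2 signal was -2.10, -2.55, -2.55 and -1.61 in Pcgf1 shRNA cultures of mice 1 to 4, against -1.14, -0.97, -0.18 and 0.30 in Control shRNA cultures, and the groups did not overlap. The log2 change was -1.70, which left 30.7% of the control signal, with adjusted p-values of 0.0798 (unblocked) and 0.0208 (mouse as a block) (SE 0.22). With the slide as the block in place of the mouse, Prg3 alone among the members passed, with an adjusted p of 0.0449, where 0.907% of all genes did.

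**Figure D1:**
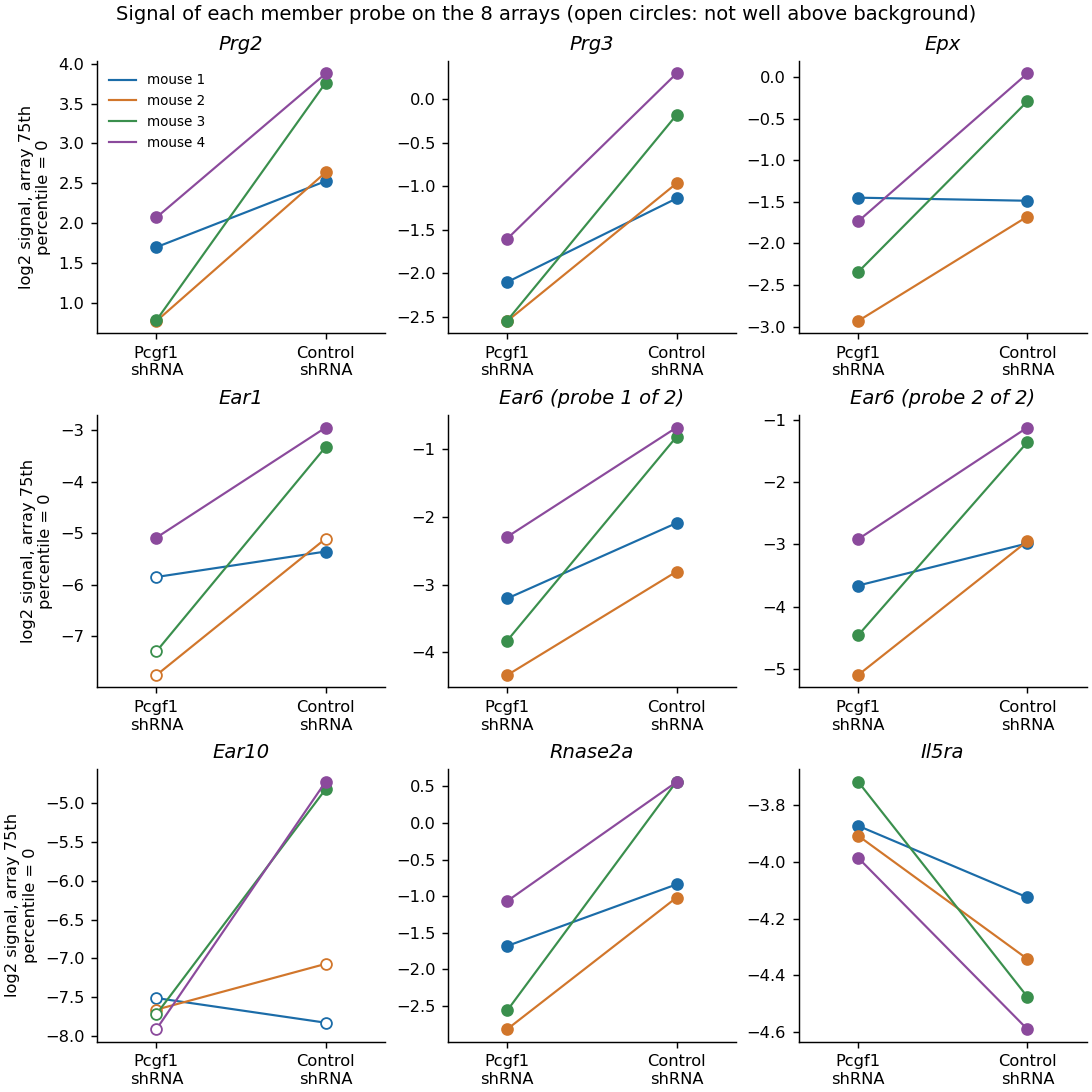
Log2 signal of the 9 member probes, with each array's 75th percentile at 0, in the Pcgf1 shRNA culture (left) and the Control shRNA culture (right) of each mouse; lines join the cultures of a mouse and open circles mark spots not well above background. Prg2, Prg3, both Ear6 probes and Rnase2a were lower in the Pcgf1 shRNA culture of all 4 mice and Il5ra was higher in all 4; each panel has its own axis.

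Epx encodes eosinophil peroxidase, the haem enzyme that makes hypobromous acid from bromide and hydrogen peroxide. Its log2 signal was -1.45, -2.93, -2.34 and -1.74 in Pcgf1 shRNA cultures, against -1.49, -1.68, -0.29 and 0.04 in Control shRNA cultures. The groups overlapped, and in mouse 1 both cultures had nearly the same signal (103% of control), whereas the Pcgf1 shRNA cultures of mice 2, 3 and 4 held 41.9%, 24.1% and 29.2% of theirs. The log2 change of -1.26 (SE 0.46) did not pass either fit, with adjusted p-values of 0.325 (unblocked) and 0.0917 (mouse as a block). Without mouse 1, the blocked adjusted p was 0.0441.

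Of the other haem peroxidases, 3 of the 8 listed were tested and 0 passed in either fit. Mpo, the myeloperoxidase of neutrophil primary granules, averaged 8.98 ± 0.35 in Pcgf1 shRNA cultures and 8.98 ± 0.23 in Control shRNA cultures (SD, n = 4 each). Lpo, lactoperoxidase, had a log2 change of -0.10 and a blocked adjusted p of 0.617.

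The Rnase2a probe and both Ear6 probes differed most in mouse 3 and least in mouse 1. Rnase2a, a ribonuclease of the RNase A superfamily, had log2 signals of -1.68, -2.82, -2.56 and -1.07 in Pcgf1 shRNA cultures, against -0.84, -1.02, 0.57 and 0.56 in Control shRNA cultures. The groups did not overlap, but the highest Pcgf1 shRNA culture (mouse 4) lay just below the lowest Control shRNA culture (mouse 2). Its log2 change was -1.85 (27.7% of the control signal), with adjusted p-values of 0.180 (unblocked) and 0.0429 (mouse as a block) (SE 0.35).

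Ear6, another ribonuclease of the family, was read by 2 probes, both well above background on all 8 arrays. The brighter probe, which stands for the gene in the fit, had log2 signals of -3.21, -4.34, -3.83 and -2.30 in Pcgf1 shRNA cultures, against -2.09, -2.81, -0.82 and -0.69 in Control shRNA cultures. The groups overlapped, although the Pcgf1 shRNA culture was lower within each of the 4 mice, as it was for 16.2% of all genes. The log2 change was -1.81 (28.4% of the control signal), with adjusted p-values of 0.254 (unblocked) and 0.0334 (mouse as a block) (SE 0.30). With normexp background correction the log2 change of Ear6 was -1.11, with an unblocked adjusted p of 0.169. The other probe gave a log2 change of -1.93, with changes of -0.68, -2.15, -3.10 and -1.79 in mice 1 to 4, so both probes differed in the same direction in every mouse.

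Ear1 and Ear10, a pair of neighbouring family members, were too dim for a test. The Ear1 probe was well above background in 1 of 4 Pcgf1 shRNA cultures (mouse 4) and in 3 of 4 Control shRNA cultures (mice 1, 3 and 4). Its measured log2 signals were -5.85, -7.75, -7.29 and -5.08 in Pcgf1 shRNA cultures, against -5.35, -5.10, -3.32 and -2.95 in Control shRNA cultures. In mouse 2 neither culture was well above background, so no direction is read there, and in mice 1, 3 and 4 the Pcgf1 shRNA culture was lower. The Ear10 probe was well above background in 0 of 4 Pcgf1 shRNA cultures and in 2 of 4 Control shRNA cultures (mice 3 and 4). It read -7.51, -7.66, -7.72 and -7.91 in Pcgf1 shRNA cultures, against -7.83, -7.07, -4.82 and -4.72 in Control shRNA cultures. On the 8 arrays the lowest signal well above background lay between -5.94 and -5.22, so most Ear1 and Ear10 values in Pcgf1 shRNA cultures are bounds and no fold is given. Signal on a probe of one family member may come in part from another, and this cross-hybridisation was not tested. The likeness given above is of promoter windows, and no probe or transcript sequences were compared.

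Of 19 further genes of the RNase A family, 9 had a probe and 5 were tested, and 0 rose and 0 fell in either fit. Their median log2 change was -0.04. Ang, angiogenin, had a log2 change of 0.19 and Rnase6, an antimicrobial ribonuclease of myeloid cells, one of -0.25, with blocked adjusted p-values of 0.585 and 0.451. Ear14 was above background on 0 of the 8 arrays.

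**Figure D2:**
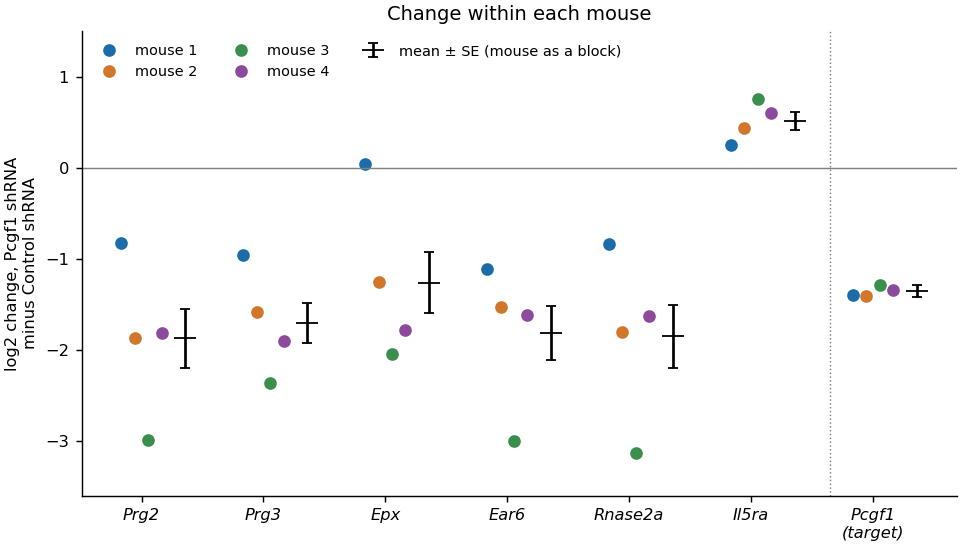
Log2 change, Pcgf1 shRNA minus Control shRNA, within each mouse (points) for the 6 members tested and for Pcgf1, the target; horizontal bars give the mean and its SE from the fit with the mouse as a block. The granule genes ranged widely over the mice, from -0.83 to -2.99 for Prg2, while Pcgf1 ranged from -1.29 to -1.40.

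Il5ra, the interleukin 5 receptor alpha chain, differed in the opposite direction. Its log2 signal was -3.87, -3.91, -3.72 and -3.99 in Pcgf1 shRNA cultures, against -4.13, -4.34, -4.48 and -4.59 in Control shRNA cultures. The groups did not overlap, as was so, with the Pcgf1 shRNA group higher, for 4.25% of all genes, and the Pcgf1 shRNA culture was higher in each of the 4 mice (15.6% of all genes). The log2 change was 0.51, or 1.43-fold, with adjusted p-values of 0.103 (unblocked) and 0.0476 (mouse as a block) (SE 0.10). The probe was dim: its processed signal was 37.2, 45.1, 54.9 and 53.9 in Pcgf1 shRNA cultures, against 36.2, 25.6, 26 and 29.2 in Control shRNA cultures. When the background was corrected by normexp with an offset of 50, the log2 change was 0.09 with an adjusted p of 0.739. That alternative started from the median spot signal, and an offset of this size beside such dim signals itself shrinks a log2 change. The size of the Il5ra difference thus depends on how dim signals are treated, and background removal and offset cannot be told apart here.

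Genes that act with or downstream of the receptor were read from a list. Of 27 listed genes of interleukin 5 receptor signalling, 27 were tested, with a median log2 change of -0.06, and 1 rose and 0 fell in both fits. The one that rose was Sox4, a transcription factor linked in human cells through syntenin to the interleukin 5 receptor, with a log2 change of 0.86 and adjusted p-values of 0.0206 (unblocked) and 0.0167 (mouse as a block). Over all genes, 0.595% rose and 0.168% fell without a block, and 2.91% rose and 2.42% fell with it. No result about the list is read from this count of 1. Csf2rb, the common beta chain, had a log2 change of -0.12, and Jak2, its kinase, one of -0.24, with blocked adjusted p-values of 0.519 and 0.149.

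The size of the difference varied over the mice for every granule gene, as the plot of changes by mouse shows. The median log2 change of the 6 members was -0.84, -1.56, -2.68 and -1.70 in mice 1 to 4, and by slide it was -1.30 for mice 1 and 2 and -2.22 for mice 3 and 4. The Prg2 difference averaged -2.40 in mice 3 and 4 (slide 2) and -1.35 in mice 1 and 2 (slide 1), a difference of -1.05 (SE 0.52). For Epx the values were -1.91 for slide 2 and -0.61 for slide 1, a difference of -1.31 (SE 0.44). After adjustment over all genes, 0 members and 0 of 17299 genes differed between the slides (adjusted p 1.00 for each member), with unadjusted p under 0.05 for Prg3 (0.0300) and Epx (0.0310), against 1.49% of all genes. Slide, mouse pair and scan cannot be told apart here.

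The granule genes moved together over the 8 arrays. The 10 pairs among Prg2, Prg3, Epx, Ear6 and Rnase2a had Pearson correlations of 0.921 to 0.991 over the 8 arrays, given as a description, since the arrays share mice and hold both groups. Their mean centred log2 signal was -0.51, -1.54, -1.26 and -0.09 in Pcgf1 shRNA cultures of mice 1 to 4, against 0.23, 0.07, 1.44 and 1.66 in Control shRNA cultures. The Control shRNA cultures thus differed among themselves, those of mice 3 and 4 being higher than those of mice 1 and 2. Il5ra ran the other way, with correlations of -0.969 to -0.832 with the 5 granule genes.

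Among 11710 other genes with a symbol, 35 (0.299%) had a correlation of 0.9 or more with this mean profile over the 8 arrays. The 10 most alike were Spata31d1a (0.960), Atp7b (0.958), Cox7a2l (0.956), Clec4g (0.956), Lrtm2 (0.955), Kcnh6 (0.953), Icam5 (0.953), Stfa2 (0.947), Stap2 (0.947) and Lsp1 (0.943). For 8 of them the log2 change lay between -0.64 (Clec4g) and -0.22 (Cox7a2l), whereas Lsp1, an actin-binding protein of leukocytes, had one of -1.12. Stfa2, a stefin of neutrophil precursors, was well above background in only 2 of 4 Pcgf1 shRNA cultures and in 4 of 4 Control shRNA cultures, so its size is not given.

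**Figure D3:**
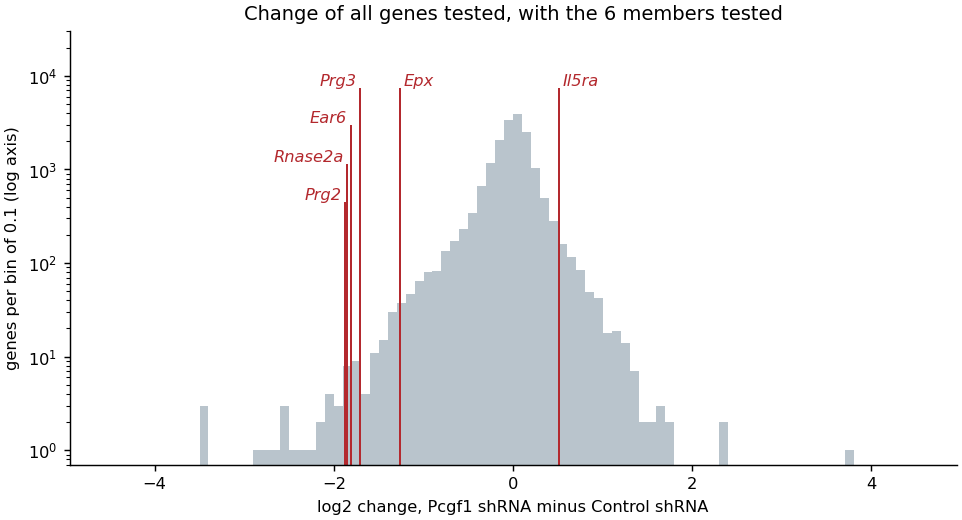
Histogram of the log2 change, Pcgf1 shRNA minus Control shRNA, of all genes tested, in bins of 0.1 with a log axis for the number of genes; red lines mark the 6 members tested. The granule genes lie in the left tail, from Prg2 at -1.87 to Epx at -1.26, and Il5ra lies at 0.51.

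The place of the members in the whole distribution can be given without a test. A change as low as that of Prg2 was seen in 0.133% of genes, as low as that of Rnase2a in 0.145%, of Ear6 in 0.162%, of Prg3 in 0.220% and of Epx in 0.653%. The members were chosen with earlier results of these data known, so these ranks are a description only.

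The label was checked against other defining eosinophil genes. Siglecf, the sialic acid-binding lectin of mouse eosinophils, was above background on 8 of 8 arrays and had a log2 change of -0.34, with adjusted p-values of 0.533 (unblocked) and 0.0617 (mouse as a block). Ccr3, the eotaxin receptor, had a log2 change of -0.21 and a blocked adjusted p of 0.510 for its kept probe, and its other probe was above background on 0 of 8 arrays.

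Of a list of 29 eosinophil surface and identity genes outside the members, which includes Siglecf and Ccr3, 21 were tested. Their median log2 change was -0.30, and 18 were lower and 3 higher, where 8571 of all 17301 genes were lower. In the unblocked fit 0 rose and 0 fell, and with the mouse as a block 1 fell, namely Il1rl1, against 2.42% of all genes. Il1rl1, the interleukin 33 receptor also made by mast cells and basophils, averaged 1.90 ± 0.79 in Pcgf1 shRNA cultures and 2.46 ± 0.62 in Control shRNA cultures (SD, n = 4 each), with a log2 change of -0.56 and a blocked adjusted p of 0.0477. P2ry14, a receptor for UDP-glucose, had a log2 change of -0.45 and a blocked adjusted p of 0.0576, and Pirb, an inhibitory receptor of myeloid cells, one of -0.92 and a blocked adjusted p of 0.0552. Ltc4s, leukotriene C4 synthase, went the other way in all 4 mice, with a log2 change of 0.44 and a blocked adjusted p of 0.0515. Alox15 and Hrh4 were above background on 0 arrays.

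Of 26 transcription factors and regulators of eosinophil development, 24 were tested, with a median log2 change of -0.03, and 0 passed without a block. With the mouse as a block 2 rose and 2 fell, against 2.91% of 17300 genes that rose and 2.42% that fell. Cebpa, which drives granulocyte commitment, had a log2 change of 0.70 (adjusted p 0.0212) and Gfi1, a repressor needed for granulocyte maturation, one of 0.79 (adjusted p 0.0326). Cebpb fell by 0.35 (adjusted p 0.0483) and Irf8, a factor of monocyte commitment, fell by 0.47 (adjusted p 0.0485). Id2 was lower in all 4 mice, with a log2 change of -0.71 and a blocked adjusted p of 0.0731. Gata1, which is required for the eosinophil lineage in mice, had a log2 change of -0.67 with a blocked adjusted p of 0.0682.

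**Figure D4:**
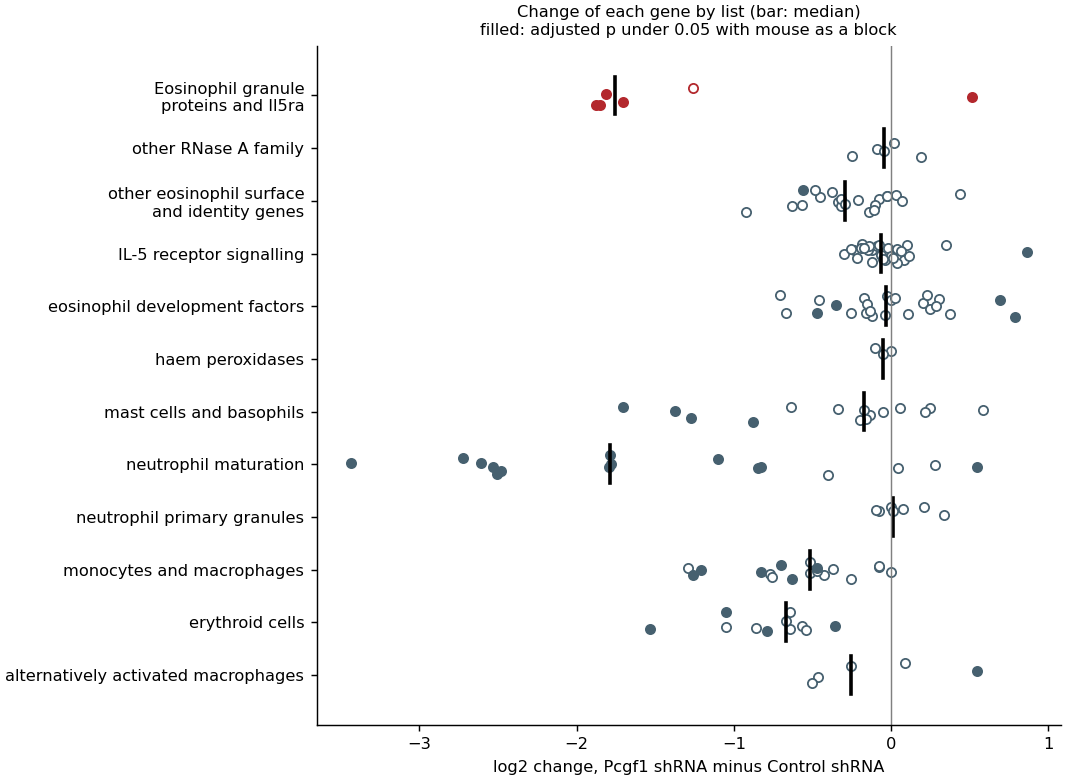
Log2 change, Pcgf1 shRNA minus Control shRNA, of each gene tested in the members (red, top) and in 11 further lists; filled points have an adjusted p under 0.05 with the mouse as a block and the black bar is the median. The members' median is -1.76 and that of the neutrophil maturation list is -1.78, or -0.97 over its 12 genes above background on all 8 arrays, while the other RNase A family stands at -0.04.

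Markers of some other cells were also lower, most of all those of neutrophil maturation, and their part in the result was not tested. Of 22 listed neutrophil maturation markers, 16 were tested, with a median log2 change of -1.78, and 5 fell without a block and 12 fell and 1 rose with the mouse as a block. Over all genes, 0.168% fell without a block, and 2.42% fell and 2.91% rose with it. The median log2 signal over this list ranged from -2.26 to -1.30 in Pcgf1 shRNA cultures and from -1.19 to -0.27 in Control shRNA cultures, and Mmp9, Retnlg and Itgb2l were above background on 0 arrays. Of the 16, 4 (Ngp, Ltf, Stfa2 and Stfa3) passed the filter through the Control shRNA group alone, where they are high. That way of passing favours a fall, so their calls are no support for one. In Pcgf1 shRNA cultures, Ngp and Ltf were well above background in 0 of 4, Stfa2 in 2 and Stfa3 in 3. Their fitted changes thus rest wholly or in part on signal at or near background. Among the 12 genes above background on all 8 arrays, the median log2 change was -0.97, 3 fell without a block, and 8 fell and 1 rose with the mouse as a block. Fpr2, a formyl peptide receptor, had a log2 change of -1.79 (blocked adjusted p 0.0149), and S100a9, a calcium-binding protein abundant in neutrophils, had one of -2.48 (blocked adjusted p 0.0219). The list did not move as one: of the 16 genes, 13 were lower and 3 higher. Cxcr2 was the gene that rose with the mouse as a block, with a log2 change of 0.54 (adjusted p 0.0194). The primary granule list did not follow: of 7 genes tested 0 passed in either fit, with a median of 0.01.

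Mast cell and basophil markers, which share the interleukin 3 response with eosinophils, split. Of 15 tested, 2 fell without a block (Tpsb2 and Tph1) and 4 with the mouse as a block (with Mcpt4 and Cma1 added), and the median log2 change was -0.17. The shares of all genes that fell were 0.168% without a block and 2.42% with it. The median log2 signal over that list ranged from -0.66 to -0.36 in Pcgf1 shRNA cultures and from -0.38 to -0.10 in Control shRNA cultures, with Mcpt1, Mcpt2, Mrgprb1 and Mrgprb2 above background on 0 arrays. Cpa3, carboxypeptidase A of mast cells, had a log2 change of -0.13, and Mcpt8, a basophil protease, had one of 0.59, with blocked adjusted p-values of 0.405 and 0.121.

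Monocyte and erythroid lists lay between these. For the counts below, 2.42% of all genes fell and 2.91% rose with the mouse as a block. Without a block, 0.168% fell and 0.595% rose. Of 18 monocyte and macrophage genes tested, with a median log2 change of -0.52, 0 passed without a block and 6 fell with it. The median signal over that list was 2.23 to 2.49 in Pcgf1 shRNA cultures and 2.59 to 3.15 in Control shRNA cultures. Of 11 erythroid genes tested, with a median of -0.67, 0 passed without a block and 4 fell with it, and the median signal ranged from 0.81 to 3.02 in Pcgf1 shRNA cultures and from 1.95 to 3.25 in Control shRNA cultures. Of 5 genes of alternatively activated macrophages tested, with a median of -0.25, 0 passed without a block and 1 rose with it, namely Mgl2 (log2 change 0.55, blocked adjusted p 0.0280).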

How the data were processed

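RNA of 8 cultures (4 Pcgf1 shRNA, 4 Control shRNA, 1 pair per mouse) was measured on one-colour Agilent arrays. Per the submitters' processing notes, Agilent Feature Extraction 10.1 made the deposited intensity values, whose processed signal is background-corrected. The authors also deposited a table of log2 values, which matched the processed signals of 10070 bright probes with a slope of 1; each probe was centred on its median.

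Signals were log2-transformed and shifted by each array's 75th percentile. Control spots and 242 non-uniform values were left out. Of 41174 probes, 22747 were kept, each well above background on every array of 1 group or both, and the brightest kept probe (by mean signal) represented its gene. RefSeq named 24375 probes by accession. Both shRNAs were compared by limma (version 3.58.1, R 4.3.3), two-sided, with Benjamini-Hochberg adjustment over all genes and a threshold of 0.05, without a block and with the mouse as a block. The titles give the mouse of each culture, and cultures of 1 mouse deviated together (r 0.439, 0.481, 0.407 and 0.642 for mice 1 to 4). The 4 arrays per group limit the precision. The fit was tested on simulated data.

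The alternatives were the slide as a block, normexp (on median spot signals, with an offset), median centring, quantile normalization, no filter, the mean of a gene's probes, the deposited table and each mouse left out. The rule for named genes took the members, Pcgf1, list genes called in either fit, the 4 genes with the smallest p in each list other than cell type markers, the 10 genes most like the mean granule profile and the defining markers; Csf2rb, Gata1, Cpa3 and Mcpt8 were added after their values were seen. Not every gene that the rule took is printed. Members and lists were chosen with earlier results of these data known.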

Additional observations from a re-analysis of the deposited data

How the results depend on the processing

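The 6 members kept the direction of their change under every alternative run, and of 96 member values under alternatives 82 kept the side of the threshold and 14 passed it where the unblocked fit did not. The mouse as a block changed the calls: 921 genes passed in place of 132, 4 members fell and 1 rose in place of 0 and 0, and 32 genes of the further lists passed in place of 8. With the slide as a block 1 member fell (Prg3). Over all genes, normexp gave 72 calls (48 rose, 24 fell, against 103 and 29 without it), and no filter on dim probes gave 0 in limma, with 2199 of 32969 genes at an unadjusted p under 0.05, and 0 in the further lists; the cause was not tested. Leaving out each mouse gave 0 to 363 genes, 0 to 1 member that fell (Prg3 without mouse 4, adjusted p 0.0446), and 0 to 13 list genes. Unadjusted p-values under 0.05 then numbered 1673, 1000, 1089 and 3974 genes without mice 1 to 4. Leaving out each mouse with the mouse as a block gave 0 to 306 genes (284, 0, 306 and 145 without mice 1 to 4), 0 to 4 members that fell and 0 to 14 list genes (14, 0, 13 and 5), the fit without mouse 2 having 2435 genes with unadjusted p-values under 0.05. Of the members, 3 fell when mouse 1 was left out (Prg2, Prg3 and Epx) and 4 when mouse 3 was. The median change of the members was -1.76 and ranged from -2.0 to -1.23; median centring moved the median of all genes to 0.10 and that of the members to -1.66. Signal near background limits several values, among them those of Ear1, Ear10 and Il5ra and, in the neutrophil maturation list, Ngp, Ltf, Stfa2 and Stfa3; normexp also gave -1.11 for Ear6 in place of -1.81.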
